A study of Mus musculus with 3 samples.

Results

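The 8 constant-region genes of the mouse immunoglobulin heavy chain locus, Ighm, Ighd, Ighg3, Ighg1, Ighg2b, Ighg2c, Ighe and Igha, were read in RNA from activated regulatory T cells (Treg cells, CD4 T cells that express Foxp3 and hold back other immune cells). They were taken by symbol from the 55536 annotated genes of the larger gene table, with GENCODE M21 names, and were selected on earlier readouts of these same libraries, namely a high Ighm TPM and an Igha TPM that varied between libraries. Levels and spreads of the 8 genes are therefore descriptions and carry no test. The data were 3 polyA-selected RNA-seq libraries, labelled technical replicates 1, 2 and 3 of 1 biosample from 1 male mouse of 9 weeks, with RNA broken by shearing. All 3 libraries form 1 group, with no treatment, genotype or control to compare. How the cells were activated and sorted and the mouse strain are not given in the labels used here. Every SD is over n = 3 libraries labelled technical replicates, so it does not measure spread between mice.

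The libraries held 31445344, 32612609 and 37259281 expected counts, which split a read that matches several genes, and 12629 genes had at least 1 TPM (transcript abundance corrected for length and scaled to the same total in each library) in every library. The labelled cell type was read from 8 T cell genes, of which Cd3e stood at 1274 ± 39.0 TPM, Cd4 at 394 ± 15.9, Il2ra at 317 ± 14.3 and Foxp3 at 135 ± 2.65. The 8 genes summed to between 5584 and 5684 TPM, and none differed by 2-fold between its highest and lowest library. Markers of other cells were also present, with 12 B cell genes summing to between 74.2 and 92.8 TPM and 5 erythroid genes to between 636 and 889 TPM. The 8 neutrophil genes summed to 25.5 TPM in library 1 against 2.36 and 3.17 TPM in libraries 2 and 3. In bulk RNA, fewer cells of a type and less RNA per cell cannot be told apart.

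A heavy chain constant gene encodes the part of an antibody that sets its class, namely IgM, IgD, the IgG subclasses, IgE or IgA. In B cells a variable segment is joined to Ighm and Ighd first, and class switching later deletes the DNA up to a downstream constant gene, so that one of the Ighg genes, Ighe or Igha is transcribed with the same variable segment. Constant genes can also give germline transcripts that carry no rearranged variable segment, and such Ighm transcripts are known from T cells. Each gene has a secreted form and a membrane form, which differ in their last exons. In most of them the membrane form splices from inside the last exon of the secreted form to exons that encode a transmembrane anchor, whereas Ighd has a separate exon for its secreted end. Resting B cells make mostly membrane forms, and plasma cells, the antibody-secreting B lineage cells, make mostly secreted forms.

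The coding ends of the transcripts are shown for Ighm and Igha because the secreted and membrane values below rest in part on reads in these bases. They are coding bases from the mm10 annotation (GENCODE M21), from the point where the forms diverge, 5′ to 3′ on the minus strand of chromosome 12, with the stop codon in capitals. A further 126 bases only in the secreted and 268 only in the membrane form of Ighm lie after the stop codon and are not shown. For Igha these are 66 and 1371 bases. The secreted end of Ighm lies in exon 4 at chr12:113420867-113420928 and its membrane end in exons 5 and 6 between 113418826 and 113419068. The secreted end of Igha lies in exon 3 at chr12:113258768-113258829 and its membrane end in exon 4 at chr12:113256201-113256397.
Ighm secreted: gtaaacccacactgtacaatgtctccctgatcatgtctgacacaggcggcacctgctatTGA
Ighm membrane: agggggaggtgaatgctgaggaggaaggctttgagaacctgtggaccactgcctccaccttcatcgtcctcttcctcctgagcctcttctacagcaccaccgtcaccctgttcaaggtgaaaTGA
Igha secreted: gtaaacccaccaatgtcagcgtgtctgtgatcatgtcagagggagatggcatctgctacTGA
Igha membrane: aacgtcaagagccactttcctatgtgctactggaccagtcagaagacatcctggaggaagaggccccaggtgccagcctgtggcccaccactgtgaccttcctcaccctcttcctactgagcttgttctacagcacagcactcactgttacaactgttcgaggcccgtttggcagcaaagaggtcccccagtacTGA

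The closest pair of the 8 genes is Ighg2b and Ighg2c, whose secreted coding sequences were identical in 868 of 1012 aligned columns, or 85.8%. A stretch of 155 bases of exon 3 is shown because it differs at 1 base, in capitals, and reads inside its 2 identical runs of 76 and 78 bases cannot be told apart between the genes. It lies at chr12:113306869-113307023 in Ighg2b and at chr12:113287869-113288023 in Ighg2c.
Ighg2b exon 3: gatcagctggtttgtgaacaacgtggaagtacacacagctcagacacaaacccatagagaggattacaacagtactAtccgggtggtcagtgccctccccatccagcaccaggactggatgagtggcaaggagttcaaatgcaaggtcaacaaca
Ighg2c exon 3: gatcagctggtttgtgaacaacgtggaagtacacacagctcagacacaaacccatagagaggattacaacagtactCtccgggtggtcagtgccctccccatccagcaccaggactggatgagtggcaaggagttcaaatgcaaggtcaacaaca

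Of all windows of 50 bases in the transcripts of Ighg2c, 70 of 1276 (5.49%) were also found in another gene, and the same held for 109 of 2628 (4.15%) in Ighg2b, 39 of 2463 (1.58%) in Ighg3 and 10 of 2542 (0.393%) in Ighg1. No such window was found for Ighm, Ighd, Ighe or Igha. The other pairs of Ighg genes were 74.2% to 76.0% identical over the secreted coding sequence. Reads were thus seldom ambiguous between these genes, and only Ighg2b and Ighg2c had expected counts that were not whole.

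Ighm (ENSMUSG00000076617.9, chr12:113418558-113422730), the gene of the IgM heavy chain, was by far the most abundant of the 8. It stood at 1707, 1563 and 1619 TPM in libraries 1, 2 and 3, from 52728, 51402 and 59974 counts. Its mean of 1630 ± 72.8 TPM ranked 60 among all annotated genes. In CPM, expected counts scaled to the annotated total of a library, its highest library exceeded its lowest 1.06-fold (95% counting interval 1.05 to 1.08). Ighm took 97.5% of the counts of the 8 genes, which together held 0.166% ± 0.00527 of all annotated counts. The smaller gene table gave a lower share, with Ighm at 80.9%, 83.3% and 67.0% of the counts of the 8 genes, and it listed 5.90% of the expected counts of Ighm against 74.2% of those of Igha and 84.4% of those of Ighg1. Counting intervals here are exact and cover counting error only, since reads that lack molecular identifiers can be copies of 1 molecule.

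Ighd (ENSMUSG00000104213.5, chr12:113406604-113416324) encodes the IgD heavy chain and lies just downstream of Ighm, with which it is co-transcribed and alternatively spliced in mature B cells. It stood at 11.7, 12.9 and 12.9 TPM, from 366, 458 and 503 counts. The 3 libraries were close to each other, with a mean of 12.5 ± 0.722 TPM and a highest over lowest ratio of 1.21 (1.05 to 1.39). Ighm and Ighd were the only members whose libraries lay within 2-fold.

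Among the 6 downstream classes, Igha (ENSMUSG00000095079.6, chr12:113254830-113260236), the gene of the IgA heavy chain, was the highest on average and stood at 2.31, 4.68 and 36.8 TPM. Its counts were 82, 126 and 964, with 95% Poisson intervals of 65.2 to 102, 105 to 150 and 904 to 1027. Library 3 alone was high, and its interval did not meet those of the others. The highest library exceeded the lowest 9.92-fold (7.92 to 12.6), but only 1.48-fold without library 3, and the mean was 14.6 ± 19.2 TPM.

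Ighg1 (ENSMUSG00000076614.7, chr12:113325240-113330523), which encodes the IgG1 heavy chain, stood at 17.5, 6.02 and 11.2 TPM, from 359, 128 and 299 counts. Library 2 was the low one, and the ratio of 2.91 (2.37 to 3.59) became 1.42 without it. Ighg3 (ENSMUSG00000076615.4, chr12:113356224-113361232), the gene of IgG3, was near the limit of detection at 0.91, 0.09 and 0.91 TPM, from 25, 2 and 28 counts. Its ratio of 13.0 (3.23 to 113) rested on the 2 counts of library 2 and was 1.06 without that library.

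Ighg2b and Ighg2c were low in different libraries. Ighg2b (ENSMUSG00000076613.4, chr12:113302965-113307933), for IgG2b, stood at 0.16, 9.84 and 5.94 TPM, from 5.21, 219.72 and 147.82 expected counts. Ighg2c (ENSMUSG00000076612.8, chr12:113285325-113288932), for IgG2c, stood at 8.36, 0.29 and 11.6 TPM, from 172.79, 6.28 and 287.18 expected counts. Ighg2b was low in library 1 only and Ighg2c was low in library 2 only, while library 3 held both. The ratios were 40.7 (17.9 to 132) for Ighg2b, falling to 1.70 without library 1, and 40.0 (19.0 to 115) for Ighg2c, falling to 1.40 without library 2. The deposited posterior SD of the counts was 0.52, 0.61 and 2.48 for each gene, so the uncertainty of dividing shared reads was small beside these differences. The smaller gene table, made from a separate alignment, listed 4, 191 and 125 counts for Ighg2b and 145, 6 and 234 for Ighg2c, low in the same libraries.

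Ighe (ENSMUSG00000087642.3, chr12:113269260-113273248), which encodes the IgE heavy chain, was present in library 1 at 1.94 TPM from 50 counts, in library 2 at 0.18 TPM from 5 counts, and in library 3 at 0 counts. With the count of 0 set to a floor of 3 counts, or 0.0946 TPM, library 1 was 19.7-fold higher than library 3 in CPM. The 95% counting interval of the ratio, with library 3 at 0 counts, began at 15.5. Without library 1 the ratio to the floor fell to 1.90. Its coefficient of variation of 152% was the highest of the 8 genes.

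**Figure D1:**
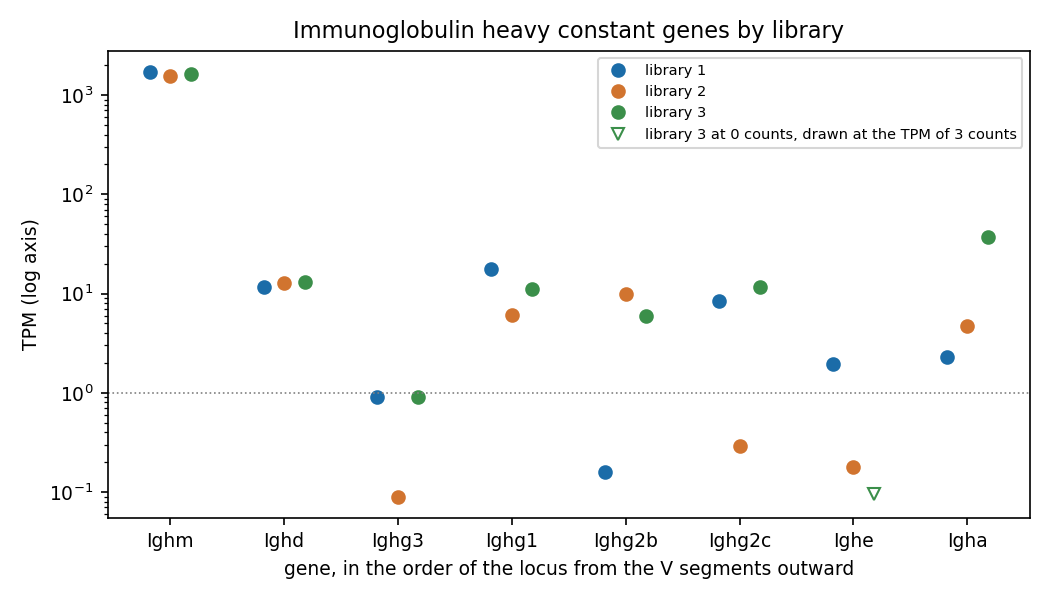
Level of each heavy constant gene in TPM on a log axis, with 1 point for each of the 3 libraries and an open triangle at the TPM of 3 counts for Ighe in library 3, which had 0 counts. Ighm lies near 1630 TPM with its points together, Ighd near 12.5 TPM likewise, and the points of the other 6 genes spread widely.

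In order of mean TPM the genes ran Ighm, Igha, Ighd, Ighg1, Ighg2c, Ighg2b, Ighe and Ighg3. Neighbours were called apart when their log2 ratio (with 0.1 TPM added) had 1 sign in all 3 libraries and a mean over 2 SD. Only Ighm and Igha were apart, by 7.76 ± 2.07 on the log2 scale, or 4.33 in CPM of the smaller table. The log2 ratio of Igha to Ighd was −2.29, −1.44 and 1.499 in libraries 1, 2 and 3, so Igha led in library 3 alone, and without that library Ighd stood apart above Igha (−1.87). That of Ighg2c to Ighg2b was 5.02, −4.67 and 0.95. The remaining neighbours also overlapped, with 0.24 ± 0.84 for Ighd over Ighg1, 1.66 ± 2.08 for Ighg1 over Ighg2c, 2.70 ± 4.93 for Ighg2b over Ighe and −0.59 ± 2.39 for Ighe over Ighg3. For Ighg2b over Ighe, the pair was apart without library 1 (5.53). For Ighe over Ighg3, leaving out library 3 turned the sign to 0.79, and Ighe then stood apart above Ighg3. That rested on 50 and 5 counts of Ighe against 25 and 2 of Ighg3 in libraries 1 and 2.

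The classes downstream of Ighd made up a small part of the expected counts, and one that differed between libraries. Together the 6 had 694, 487 and 1726 counts, or 1.29%, 0.930% and 2.77% of the counts of the 8 genes, and 31.2, 21.1 and 66.4 TPM. In the smaller table their share was 14.4%, 11.1% and 28.0%, also lowest in library 2 and highest in library 3. A different gene led in each library. In library 1 the largest share of these counts was Ighg1 at 51.7%, followed by Ighg2c at 24.9%. Ighg2b led library 2 at 45.1%, ahead of Ighg1 at 26.3% and Igha at 25.9%. In library 3 Igha held 55.9%, with Ighg1 at 17.3% and Ighg2c at 16.6%. The 4 Ighg genes summed to 27.0, 16.2 and 29.6 TPM, with a highest over lowest CPM ratio of 1.87.

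**Figure D2:**
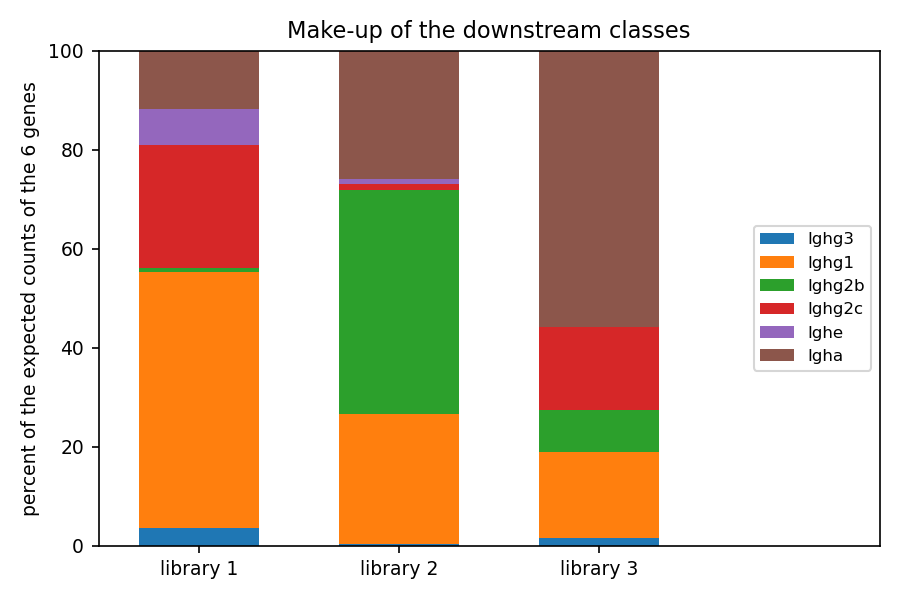
Share of the expected counts of the 6 downstream classes taken by each gene, in percent, with 1 bar for each library. Ighg1 is the largest piece in library 1 (51.7%), Ighg2b in library 2 (45.1%) and Igha in library 3 (55.9%).

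The spread was set beside that of all genes. Of the members, 6 of 8 had a highest over lowest ratio of at least 2, where 17.6% of the 15918 genes with a summed count of at least 30 did. Nothing is read from that difference, because the spread helped to choose the genes and because the ratio depends on depth. Of 4968 genes with 30 to 300 counts, 51.3% passed 2-fold, of 4563 with 300 to 3000 counts 5.41% did, and of 6387 with over 3000 counts 0.0470% did. Members past the fold were 2 of 2 in the low bracket (Ighe and Ighg3), 4 of 5 in the middle bracket (all but Ighd), and 0 of 1 in the high bracket (Ighm). In the middle bracket the median gene had a ratio of 1.27 and the 95th percentile was 2.04, beside a median of 9.92 for the 5 members there. Of these genes, 14 had a higher ratio than Ighg2b, 15 than Ighg2c, 17 than Igha and 65 than Ighg1, whereas 2805 exceeded Ighd. These places are description too, since the spread helped to choose the genes. In the high bracket 4776 of 6387 genes showed a higher ratio than Ighm. That bracket is open above 3000 counts and Ighm had 164104, so genes of its own depth were not compared.

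**Figure D3:**
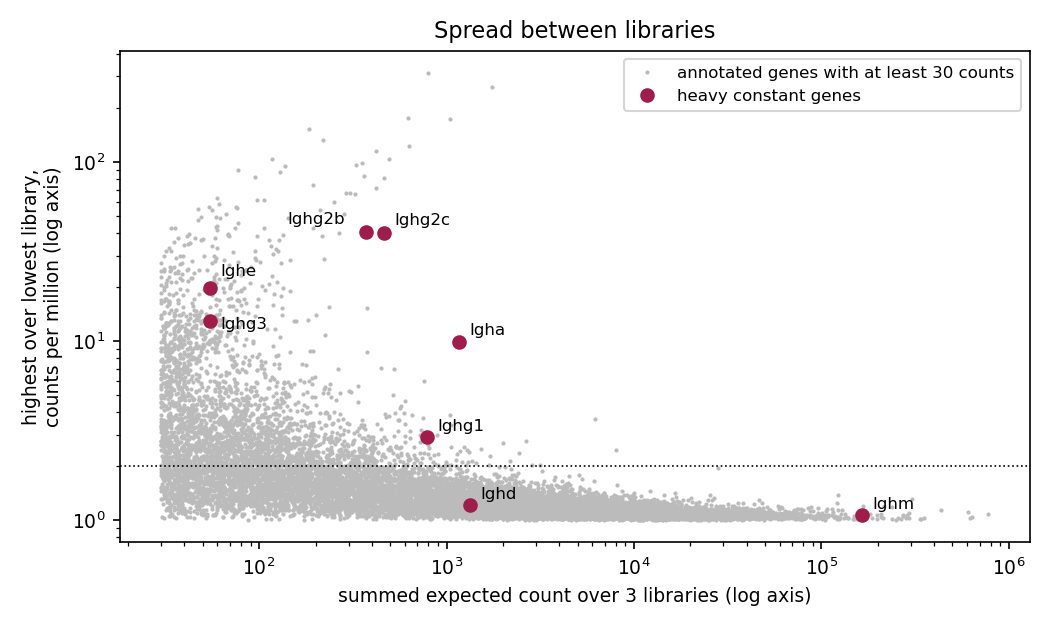
Highest over lowest library ratio (log axis) against summed expected count (log axis) for the 15918 genes with at least 30 counts, with the 8 heavy constant genes marked and a dotted line at 2. Ighg2b, Ighg2c, Igha and Ighg1 lie above the 95th percentile of their depth (2.04), and Ighd and Ighm lie within the cloud.

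Secreted and membrane transcripts were then read from the transcript table. Both forms share most of their bases (1305 in Ighm, against 188 only in the secreted and 393 only in the membrane form), so the division of reads between forms is an estimate. Ighm was mostly membrane form in every library. Its membrane transcript Ighm-202 stood at 1192, 1103 and 1128 TPM and its secreted transcript Ighm-201 at 515, 459 and 490 TPM. The secreted share of 30.2%, 29.4% and 30.3% (mean 29.95% ± 0.491) varied little. Ighd was likewise mostly membrane form, with a secreted share of 14.4%, 4.19% and 9.12%.

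In the 6 downstream classes the secreted form prevailed, with 598.94, 440.31 and 1554.08 secreted against 95.06, 46.69 and 171.92 membrane counts in libraries 1, 2 and 3. The mean secreted share of TPM was 96.6% ± 4.43 for Ighg1, 85.1% ± 25.0 for Ighg2b and 83.3% ± 14.8 for Ighg3. Ighg2c had only its secreted transcript, at 100% in each library, and its membrane transcript, annotated with 0 bases after the stop codon, has 215 bases of its own. Ighe was 90.7% secreted in library 1 and 100% in library 2, the latter from 5 counts, and had no read in library 3. The Ighe membrane transcript too is annotated with 0 bases after the stop codon, and has 218 bases of its own. The Ighg2b value of library 1, 56.3%, rested on 5.21 counts.

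The secreted share of Igha differed between libraries, at 46.3%, 82.7% and 94.97%. The secreted Igha transcript had 21.8, 84.19 and 856.31 counts in libraries 1, 2 and 3, while the membrane transcript had 60.2, 41.81 and 107.69 counts. Most of the excess Igha of library 3 was thus assigned to the secreted transcript, whose coding end is printed above. By transcript counts instead of TPM the mean secreted share of Igha was 60.7% ± 31.6 and that of Ighm 27.2% ± 0.464.

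**Figure D4:**
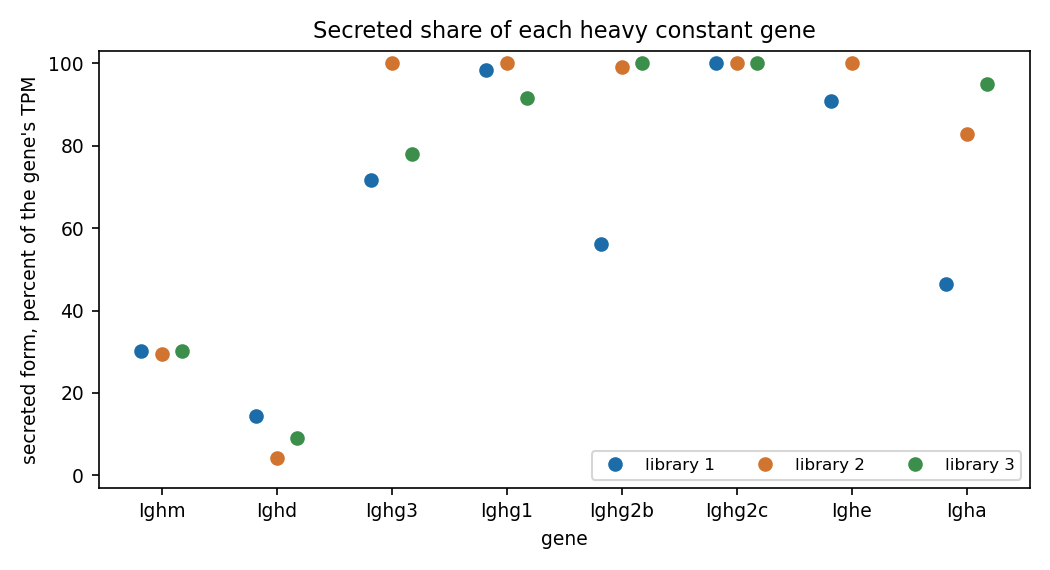
Secreted share of each gene's transcript TPM in percent, with 1 point for each library that had reads. Ighm (mean 29.95%) and Ighd (mean 9.24%) lie below the downstream classes, and Igha runs from 46.3% to 94.97%.

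Variable segments were compared with the constant genes, since a rearranged antibody transcript carries both. This sum was chosen after values had been seen. The 113 Ighv genes summed to 93.5, 48.2 and 79.0 TPM, which was 5.34%, 3.02% and 4.65% of the heavy constant TPM (mean 4.34% ± 1.19). The same share was 36.7% ± 6.35 for the kappa light chain, 43.6% ± 1.11 for the T cell receptor beta chain and 61.7% ± 3.17 for the alpha chain, whose V genes were taken with the interspersed Trdv genes. Heavy variable TPM was thus low beside heavy constant TPM in all 3 libraries. Set against the 6 downstream classes alone, Ighv TPM was 300%, 229% and 119% of their sum. Of 18 Ighv genes with at least 30 counts, 16 differed by at least 2-fold between libraries, as did 19 of 21 Igkv genes, 19 of 106 Trav and Trdv genes and 0 of 21 Trbv genes. These loci differ in depth: in the bracket of 30 to 300 counts, where 51.3% of all genes passed, the numbers were 16 of 18 for Ighv, 18 of 19 for Igkv, 14 of 60 for Trav and Trdv and 0 of 2 for Trbv.

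**Figure D5:**
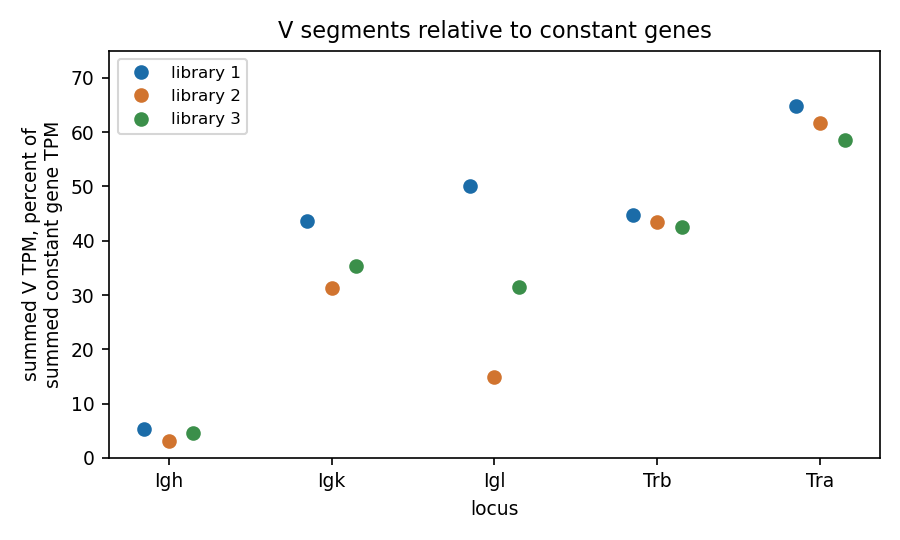
Summed variable segment TPM as a percentage of constant gene TPM at each receptor locus, with 1 point for each library. The heavy chain locus lies at a mean of 4.34%, below the means of the kappa (36.7%), beta (43.6%) and alpha (61.7%) loci, and the lambda locus, with 3 V genes, runs from 14.9% to 50.1%.

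The heavy joining and diversity segments could scarcely be read. Of 24 segments, 21 stood at 0 with an effective length of 0, so they could not receive a read of 50 bases and their 0 says nothing. Ighj1, which lies before Ighm, had 29, 31 and 34 counts, Ighj2 had 4, 3 and 2, and Ighj4 had 14, 3 and 4. Only Ighj1 was even across libraries.

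The light chain constant genes, whose products pair with the heavy chain, differed between libraries too. Igkc, for the kappa chain, stood at 352, 255 and 355 TPM, below Ighm in each library. Of 4 light constant genes with at least 30 counts, 3 passed 2-fold: Iglc1 with 42, 19 and 50 counts, Iglc2 with 73.11, 73.53 and 192.22, and Iglc3 with 274.89, 63.19 and 37.68. Iglc1 had a summed count of 30 to 300, where 51.3% of all genes passed, and Iglc2 and Iglc3 of 300 to 3000, where 5.41% did. The counts of Iglc2 and Iglc3 include shared reads, so their values depend on how such reads were divided. Iglc4, with 0, 0 and 1 counts, was the lowest.

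Genes of antibody-making cells were present at low to moderate levels. Among 12 B cell genes, 8 were detected, led by Cd79b (29.3 ± 3.95 TPM) and Cd79a (8.04 ± 2.93), which encode the signalling chains of the B cell receptor, and by Cd72 (25.1 ± 3.86) and Cd22 (5.66 ± 1.18), both inhibitory coreceptors. Pax5, the B lineage factor, was the lowest at 0.0867 TPM with 11, 14 and 12 counts. The list summed to 92.8, 74.2 and 74.9 TPM, highest in library 1 and not in library 3. Of the 12 genes, 4 passed 2-fold, among them Ebf1 (20, 51 and 50 counts), Blnk (49.06, 99.18 and 42) and Spib (50, 29 and 115). Ebf1, Blnk and Spib had summed counts of 30 to 300, where 51.3% of all genes passed.

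The plasma cell list of 10 genes summed to 257, 232 and 268 TPM and was led by Xbp1 (116 ± 9.50 TPM), Prdm1 (46.2 ± 2.70), Tent5c (40.8 ± 1.31) and Irf4 (28.3 ± 1.48). These 4 are also known from activated T cells. Jchain, whose product joins IgA and IgM into polymers, had 435, 199 and 552 counts, lowest in library 2. Mzb1, a chaperone of antibody assembly, had 45.51, 23.39 and 74.44 counts. Both were lowest in library 2, as was the sum of the 6 downstream classes, and highest in library 3. Derl3 went the other way, with 83, 92 and 44 counts, and Fkbp11 was highest in library 1, with 20, 2 and 13. With Jchain and Mzb1 they were the 4 of 8 that passed 2-fold. Mzb1, Derl3 and Fkbp11 had summed counts of 30 to 300, where 51.3% of all genes passed, and Jchain of 300 to 3000, where 5.41% did. Tnfrsf17 was at 0 in all 3 libraries. The part of B lineage cells in the heavy constant values was not tested.

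Other cell lists were read in the same way. All 6 of 6 neutrophil genes with enough counts passed 2-fold: S100a8 (66, 0 and 2 counts), S100a9 (52, 1 and 3), Ngp (107, 11 and 12), Ltf (82, 26 and 36), Ly6g (20, 2 and 15) and Mpo (32, 0 and 0). Their summed counts lay in the bracket of 30 to 300, where 51.3% of all genes passed. All 6 had their highest count in library 1, which was also the highest library in CPM for Ighm, Ighg3, Ighg1 and Ighe. Ighm differed only 1.06-fold between libraries, though, and Ighg3 stood at 0.91 TPM in libraries 1 and 3 alike. The B cell and erythroid sums were also highest in library 1, at 92.8 and 889 TPM. Of the macrophage list, Adgre1 (85, 22 and 79 counts) was the 1 of 6 past 2-fold, and the list summed to between 54.1 and 57.8 TPM. The 4 mast cell and basophil genes, cells that bind IgE, summed to between 0.28 and 0.72 TPM, and 0 of 5 erythroid genes passed 2-fold. Their part in the constant gene values was not tested.

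Most listed genes linked to class switching, many of which act in general DNA repair, were detected at even levels. Of 14 genes found, 13 were detected, with Batf at 231 TPM, the end-protection factor Rif1 at 71.3 and the mismatch repair gene Msh6 at 43.9 TPM. Only Ung, which removes uracil from DNA, passed 2-fold among 13 genes, with 97, 40 and 129 counts. Of 17 factors known to bind the heavy chain intronic enhancer, all 17 were detected, 0 passed 2-fold and the median was 39.7 TPM. Ets1 (736 TPM), Tcf3 (99.9), Fli1 (81.1) and Ikzf1 (74.9) were the highest, and Spi1 the lowest at 2.49 TPM.

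Genes with a library pattern most like that of Ighe were sought among 12940 genes with at least 100 counts, by the summed absolute difference of their shares over the 3 libraries. The 8 nearest were Gm37988, Trav7n-6, Ngp, Gm26720, Gm26825, Zc3h11a, Gm45705 and Gm10163. Only Ngp, a neutrophil granule gene, had whole counts, at a distance of 0.159. The same search for Igha, added after its values had been seen, gave Tnfaip2 (13, 14 and 84 counts, distance 0.144), Nectin2, Sema3d (65, 37 and 236 counts), Wfikkn1, Gm45062, Aire (6, 32 and 83 counts), 4933406P04Rik and Gm5884. No immunoglobulin gene entered either search. With 3 libraries such likeness is a description.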

How the data were processed

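For each library the authors deposited 3 tables on mm10, a transcript table and a larger and a smaller one of genes. Per the notes deposited with the samples, the transcript and larger gene tables use GENCODE M21. They hold expected counts, in which the authors divided reads that match several features, and TPM and FPKM, which the authors corrected for effective length. The deposited posterior SD of the counts and effective lengths were used as given. The smaller gene table holds whole-number counts deposited on GENCODE M4 from a separate alignment, 8827129, 8758421 and 9555924 per library. Its Ighm counts were 3214, 3205 and 3215, far below the expected counts, and its way of counting is not stated. The aligner, the quantification program and any use of strand were not given in the sources used here, and reads from genes overlapping on opposite strands may be mixed.

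Rows with no annotated gene held 0.125%, 0.182% and 0.155% of expected counts and stayed out of library sizes. Ratios between libraries used CPM (expected counts scaled to the annotated total), with a count under 0.5 set to a floor of 3 counts, for genes with a summed count of at least 30. Intervals were exact at 95%. Counts were called whole within 0.005. Forms, positions and sequences came from the GENCODE M21 annotation and transcripts, and a transcript with the membrane exons was a membrane form. TMM factors came from edgeR 4.0.16 in R 4.3.3; the rest used Python 3.11.15, pandas 2.3.3, scipy 1.17.1 and matplotlib 3.10.9.

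The members and lists were chosen with earlier results of these data known. Named were all 8 members, and of each list the 4 highest, the lowest and every gene past 2-fold with at least 30 counts, except that some list genes are not reported here. For the member with the highest coefficient of variation, the 8 genes of nearest library pattern were named. Genes below 30 counts that are given beside these, and the Foxp3, Cd4 and Il2ra levels, were chosen after their values were seen. The alternatives were leaving out each library, other units, library sizes, pseudocounts and filters, and the smaller table, whose shares of the 8 genes were added after the data were seen.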

Additional observations from a re-analysis of the deposited data

How the results depend on the processing

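Of 200 alternatives over 35 results, 177 moved by less than the SD over libraries, kept their side of the threshold or, for counts and shares of genes, stayed within 1.5 times. The level of Ighm was 1591 to 1663 TPM with 1 library left out, 1021 as FPKM, another scale, 1623 in CPM of expected counts and 355 in CPM of the smaller table. Every other member instead was higher there, with Igha at 31.3 against 10.8 CPM, Ighd at 23.7 against 13.1 and Ighg1 at 24.2 against 7.80. The Igha counts themselves were lower there, at 50, 109 and 725 against 82, 126 and 964, out of smaller library totals. The cause of the difference between the tables was not tested. The secreted share of Ighm was 29.8% to 30.2% with 1 library left out and 27.2% by transcript counts. The Igha ratio ran from 1.48 (without library 3) to 9.92, and was 10.1 with TMM library sizes, 15.9 by TPM and 13.4 in the smaller table. The log2 ratio of Ighm over Igha was 6.91 to 8.91 (4.33 in the smaller table) and the Ighm ratio 1.02 to 1.06 with 1 library left out. From 4 to 5 members were then detected, and 3 at 5 TPM or more. The 8 genes then held 0.164% to 0.169% of annotated counts, and Ighm 97.2% to 98.1% of theirs. In the smaller table these were 0.0464% and 77.1%. The log2 ratio of Ighe over Ighg3 turned from −0.59 to 0.79 without library 3, where the pair was apart, and was −1.39 without library 1. The share of all genes past 2-fold was 27.8% with any count above 0 in every library and no other filter. From 300 counts it was 2.28%, since fewer low genes were then read. Depth limited Ighe and Ighg3, with 55 counts each in all.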

Other observations

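Fc receptors, which bind antibodies, were read with related genes in a list of 15 genes, of which 7 were detected. Trim21, the cytosolic antibody receptor, was the highest at 85.7 ± 3.21 TPM, followed by Fcrl1 at 24.5 ± 1.77, Fcer1g at 6.96 ± 2.20 and Fcmr, the IgM receptor, at 5.62 ± 0.182 TPM. Of 11 with at least 30 counts, 4 differed by at least 2-fold between libraries: Fcgrt (93, 95 and 55 counts), Fcgr1 (5, 8 and 18), Fcgr2b (28.57, 9.51 and 5.5) and Fcgr4 (17, 8 and 14). These 4 had summed counts of 30 to 300, where 51.3% of all genes passed. Pigr, which carries IgA and IgM across epithelia, was the lowest by mean TPM, with 3, 0 and 0 counts.

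Genes beside the heavy chain locus differed widely in level. Crip1 stood at 1866 ± 47.1 TPM, near the level of Ighm, and Mta1 at 29.8 ± 1.56 TPM. Crip2 had 197, 86 and 150 counts and Tmem121 had 15, 17 and 0, and these were the 2 of 5 past 2-fold. Crip2 had a summed count of 300 to 3000, where 5.41% of all genes passed, and Tmem121 of 30 to 300, where 51.3% did. Adam6b and Adam6a, which lie within the locus itself, had means of 0.710 and 0.143 TPM.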
